A study of Mus musculus with 30 samples.

Results

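The genes of central carbon metabolism were followed in mouse bone marrow progenitors: 21 genes of glycolysis with its glucose and lactate transporters, 7 of the pentose phosphate pathway and 14 of the pyruvate dehydrogenase complex and the tricarboxylic acid (TCA) cycle. These 42 symbols were looked up in 5 deposited expression tables, and all were found among the 24421 genes listed. The series compared cells named T1 and T2, sorted by flow cytometry from mice called KOiMOS and WTiMOS, to ask what the transcription factor Bcl11a does in multipotent progenitors. MPP3 lean to myeloid output and MPP4 to lymphoid output. KOiMOS MPP3 came from mice aged 3 months, and WTiMOS MPP3 and WTiMOS MPP4 from mice aged 3 months and 24 months. Each of these 5 settings has a table with 3 T1 and 3 T2 libraries, 30 libraries in 10 groups. The design text also lists KOiMOS MPP3 of 24 months, not analysed here. The labels do not say which Bcl11a state T1 or T2 cells carry, which allele or driver the mice have, or whether libraries of a group came from separate animals. P-values therefore measure only the spread between these libraries.

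Glycolysis takes up glucose, phosphorylates it, splits the sugar and ends in pyruvate, which lactate dehydrogenase turns into lactate for export. The pentose phosphate pathway branches off at glucose 6-phosphate, first by an oxidative arm that yields NADPH and ribose phosphate, then by a reversible arm that returns sugars to glycolysis. Pyruvate that enters mitochondria becomes acetyl-CoA and is oxidised in the TCA cycle. Blood stem cells are known for relying on glycolysis, and progenitors that divide and differentiate for drawing more on mitochondrial oxidation.

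Values are TPM, transcript abundances which divide reads by transcript length and by the library's own total, so that levels of different genes can be set side by side but a change in very abundant genes shifts all others. Between 10519 and 12008 genes reached 1 TPM in each library, and 39 of the 42 members did so in all 30 libraries. Log2 values of replicates correlated at r = 0.978 to 0.996 across genes. In the MPP4 cells at 3 months the share of TPM held by transcripts under 1000 bases rose from 21.5% in T1 to 33.9% in T2 libraries, against differences of the opposite sign in the other 4 tables. B2m alone went from 15485 to 31483 TPM. Over all genes tested the median T2-T1 log2 change was -0.74 there, 0.43 in MPP4 at 24 months, 0.18 in MPP3 at 24 months, 0.10 in WTiMOS MPP3 at 3 months and -0.042 in KOiMOS MPP3. Values were therefore also rescaled by median-ratio size factors within each table, which brings these medians to -0.039, 0.04, 0.0051, 0.0075 and -0.0085. Where rescaling ends or reverses a T2-T1 call of a named member, the text says so, mostly with the rescaled value. Sums of pathways and marker lists are given on the deposited scale alone. In bulk RNA, fewer cells of a type and less RNA per cell cannot be told apart.

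Promoters of 3 members are shown first, because several results below turn on Hk3 and on the lactate dehydrogenase pair: Hk3 (chr13:55021386-55021635, minus strand), Ldha (chr7:46845554-46845803, plus strand) and Ldhb (chr6:142507958-142508207, minus strand), from RefSeq with build GRCm38.p6, 5′ to 3′ along the gene. Each is the 250 bases before the gene's RefSeq start, and capitals mark CACGTG (the E-box) and ACGTG or its reverse CACGT (the core of the hypoxia response element, which also lies within every CACGTG).
Hk3: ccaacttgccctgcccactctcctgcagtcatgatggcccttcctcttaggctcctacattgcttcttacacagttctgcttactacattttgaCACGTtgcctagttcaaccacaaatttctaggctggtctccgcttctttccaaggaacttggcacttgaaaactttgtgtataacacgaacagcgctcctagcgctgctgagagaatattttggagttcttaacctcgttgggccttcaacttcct
Ldha: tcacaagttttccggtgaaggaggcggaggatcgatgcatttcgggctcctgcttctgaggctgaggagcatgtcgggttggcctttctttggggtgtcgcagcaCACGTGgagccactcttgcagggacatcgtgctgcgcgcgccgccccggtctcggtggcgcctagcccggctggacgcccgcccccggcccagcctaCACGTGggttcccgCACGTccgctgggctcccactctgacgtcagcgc
Ldhb: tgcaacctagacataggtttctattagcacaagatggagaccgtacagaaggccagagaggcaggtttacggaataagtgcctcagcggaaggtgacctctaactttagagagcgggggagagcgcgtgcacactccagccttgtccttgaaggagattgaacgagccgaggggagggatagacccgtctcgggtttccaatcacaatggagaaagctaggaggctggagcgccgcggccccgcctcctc
The Hk3 window held 1 ACGTG, on the minus strand 156 bases before the start. The Ldha window held CACGTG 145 and 48 bases before the start and a separate ACGTG on the minus strand 34 bases before it. The Ldhb window held neither motif. Read on both strands, ACGTG was in 16.6% of 27025 promoters of this length and in 13 of the 40 members with a RefSeq entry. These were 9 of 20 in glycolysis, 4 of 13 in the TCA cycle and 0 of 7 in the pentose phosphate pathway. CACGTG was in 6.05% of all promoters and in 3 members, Ldha, Pfkm and Slc16a1. TGACCA, a motif known for BCL11A and searched after the data were seen, was in 11.5% of all promoters and in 3 members, Pgam1, Pkm and Slc2a1. These matches describe letters in a window and say nothing of binding.

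Every T2 library of the 4 WTiMOS tables held more Bcl11a RNA than every T1 library, which was not so in the KOiMOS table. In KOiMOS MPP3 the T1 libraries read 68.8, 69.0 and 73.2 TPM and the T2 libraries 69.8, 64.3 and 70.6 TPM, which overlap. WTiMOS MPP3 at 3 months gave 43.8, 48.5 and 43.5 TPM in T1 and 76.3, 85.3 and 73.8 TPM in T2. MPP3 at 24 months gave 8.52, 12.9 and 12.1 and 44.4, 39.8 and 33.2 TPM. For MPP4 the T1 and T2 libraries read 43.3, 39.3 and 35.6 and 66.4, 64.2 and 64.5 TPM at 3 months, and 22.7, 26.5 and 26.2 and 71.6, 64.3 and 64.2 TPM at 24 months. So the table called KOiMOS holds Bcl11a RNA at a level within the range of the WTiMOS tables. Whether the reads come from an altered part of the gene was not tested.

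Of the genes that define the MPP gate, Kit, Ly6a, Cd48, Flt3 and Cd34 were present in all 10 groups. Slamf1, which MPP3 and MPP4 lack, averaged at most 2.55 TPM. Flt3, which marks MPP4, averaged 179.7 and 116 TPM in MPP4 T1 and T2 at 3 months against 87.6 and 146 TPM in WTiMOS MPP3. Markers of other cells differed between T1 and T2. These sums are on the deposited scale and were not rescaled. Size factors, by which rescaling divides, were 1.30 to 1.36 in T1 and 0.72 to 0.80 in T2 of MPP4 at 3 months. At 24 months in MPP4 they were 0.85 to 0.86 in T1 and 1.16 to 1.18 in T2. Directions of the sums in MPP4 can therefore turn with the scale. The summed neutrophil and monocyte list of 9 genes was higher in T2 in KOiMOS MPP3 (4287 to 4540.4 TPM in T1 and 8162 to 8654 TPM in T2) and lower in T2, without overlap, in the other 4 tables. It ran from 8882 to 10049 TPM in T1 and 6378 to 8308 TPM in T2 in WTiMOS MPP3 at 3 months and from 12169 to 13687 TPM in T1 and 2323 to 2713 TPM in T2 at 24 months. In MPP4 it ran from 1261 to 1338 TPM in T1 and 741 to 754 TPM in T2 at 3 months and from 2156 to 2304 TPM in T1 and 846 to 1007 TPM in T2 at 24 months. The mast and basophil list of 8 genes was higher in T2 in KOiMOS MPP3 (411 to 520.1 TPM in T1 and 4484 to 4804 TPM in T2) and in MPP4 at 3 months (27.6 to 33.2 TPM in T1 and 51.9 to 57.3 TPM in T2). It was lower in T2 in MPP3 at 24 months (2296 to 2537 TPM in T1 and 845 to 963 TPM in T2) and in MPP4 at 24 months (227 to 266 TPM in T1 and 62.7 to 80.0 TPM in T2), and overlapped in WTiMOS MPP3 at 3 months (251 to 274 TPM in T1 and 161 to 391 TPM in T2). Of this list, Cpa3 and Mcpt8 made up the sum in MPP4 at 24 months, where the other 6 genes were listed at 0. The erythroid list of 10 genes was higher in T2 in every table but MPP4 at 3 months, where it overlapped. It ran from 601 to 711 TPM in T1 and 1575 to 1869.9 TPM in T2 in WTiMOS MPP3 at 3 months, from 315 to 413 TPM in T1 and 1433 to 1591 TPM in T2 in MPP3 at 24 months and from 420.2 to 428 TPM in T1 and 774 to 927 TPM in T2 in MPP4 at 24 months. The stem cell list of 5 genes was higher in T2 in WTiMOS MPP3 at 3 months (40.7 to 47.4 TPM in T1 and 84.9 to 96.7 TPM in T2), MPP3 at 24 months (11.3 to 16.3 TPM in T1 and 57.8 to 75.4 TPM in T2) and MPP4 at 24 months (20.9 to 24.5 TPM in T1 and 79.2 to 93.6 TPM in T2). Its sum was lower in KOiMOS MPP3 (115 to 117 TPM in T1 and 94.0 to 104 TPM in T2) and MPP4 at 3 months (55.3 to 61.7 TPM in T1 and 37.3 to 42.3 TPM in T2). The B cell list of 6 genes was lower in T2 in every table but MPP4 at 24 months, where it overlapped, and ran from 786 to 1027 TPM in T1 and 192 to 251 TPM in T2 in WTiMOS MPP3 at 3 months. The megakaryocyte list was higher in T2 in all 5 tables, and the dendritic and the T and NK cell lists went in both directions. A list of 6 immediate early and heat shock genes, which cell handling is known to induce, was lower in T2 in KOiMOS MPP3 (1783 to 1794 TPM in T1 and 1151 to 1226 TPM in T2), WTiMOS MPP3 at 3 months (5009 to 5214 TPM in T1 and 2971 to 3344 TPM in T2) and MPP4 at 3 months (1934 to 2110.3 TPM in T1 and 579 to 728 TPM in T2). It was higher in MPP4 at 24 months (1078 to 1248 TPM in T1 and 1278 to 1355 TPM in T2) and overlapped in MPP3 at 24 months. The proliferation list of 10 genes was higher in T2 in KOiMOS MPP3 (1805 to 1858 TPM in T1 and 2291 to 2415 TPM in T2) and overlapped in MPP3 at 24 months. It was lower in MPP4 at 3 months (2379 to 2424 TPM in T1 and 1620.5 to 1669 TPM in T2) and 24 months (2623 to 2817 TPM in T1 and 2133 to 2277 TPM in T2), and in WTiMOS MPP3 at 3 months (2671 to 2734 TPM in T1 and 2556 to 2670.4 TPM in T2). The Y-linked transcripts Eif2s3y, Ddx3y, Kdm5d and Uty were at 0 in every T1 library of MPP4 at 3 months and MPP3 at 24 months and at most 0.184 TPM in T1 of MPP4 at 24 months, while every T2 library of these tables held all 4. In these 3 tables the sex of the donors and the T1 or T2 group cannot be told apart. Of the members, G6pdx, Pgk1, Pdha1 and Idh3g lie on the X chromosome. The part of cell makeup, of these lists and of sex in the results below was not tested.

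Glycolysis RNA was most abundant in the MPP3 tables of 3 months. Libraries of these tables also differed in makeup from the other 3 tables. By group mean, transcripts under 1000 bases held 11.9 to 16.0% of TPM against 21.1 to 33.9% elsewhere, and those over 3000 bases 25.6 to 27.5% against 15.2 to 22.0%. B2m averaged 3589.7 to 5149.7 TPM against 15485 to 31483 TPM. The part of this makeup in the sums was not tested. Summed over its 21 genes, glycolysis RNA read 8907, 8632 and 8415 TPM in KOiMOS T1 libraries and 9667, 10276 and 9699 TPM in T2. The sum was lower in T2 in MPP4 at 3 months, from 3248, 3540.2 and 3922 TPM in T1 to 1463, 1442 and 1492 TPM in T2, the lowest of any group. WTiMOS MPP3 at 3 months had 7731, 7619.7 and 7365 TPM in T1 and 7664, 8124 and 8259.6 TPM in T2, with overlap. At 24 months the T1 and T2 sums overlapped in MPP3 (2542 to 3033 and 3006 to 3262 TPM) and in MPP4 (2882 to 3768 and 3532 to 4256 TPM). The 7 pentose phosphate genes summed to 382 to 402 TPM in MPP4 T2 at 3 months, the lowest group, against 597 to 655 TPM in its T1. They summed to 1539 to 1642 TPM in WTiMOS MPP3 T1 at 3 months, the highest. All these sums are as deposited and were not rescaled. With the size factors given above, the lower T2 sums of MPP4 at 3 months depend on the scale. The summed TPM of the 14 TCA genes was spread less between groups. Leaving aside MPP4 T2 at 3 months (1936 to 2131 TPM), the TCA sums lay between 2765 and 4065 TPM in all 27 other libraries, while the glycolysis sums of those libraries ran from 2542 to 10276 TPM. Some single TCA genes ran wider than this sum. Over all 10 groups, means ran from 12.5 to 127 TPM for Ogdh, 7.72 to 114 TPM for Dlst and 25.1 to 209 TPM for Cs, against 245 to 408 TPM for Suclg1.

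**Figure D1:**
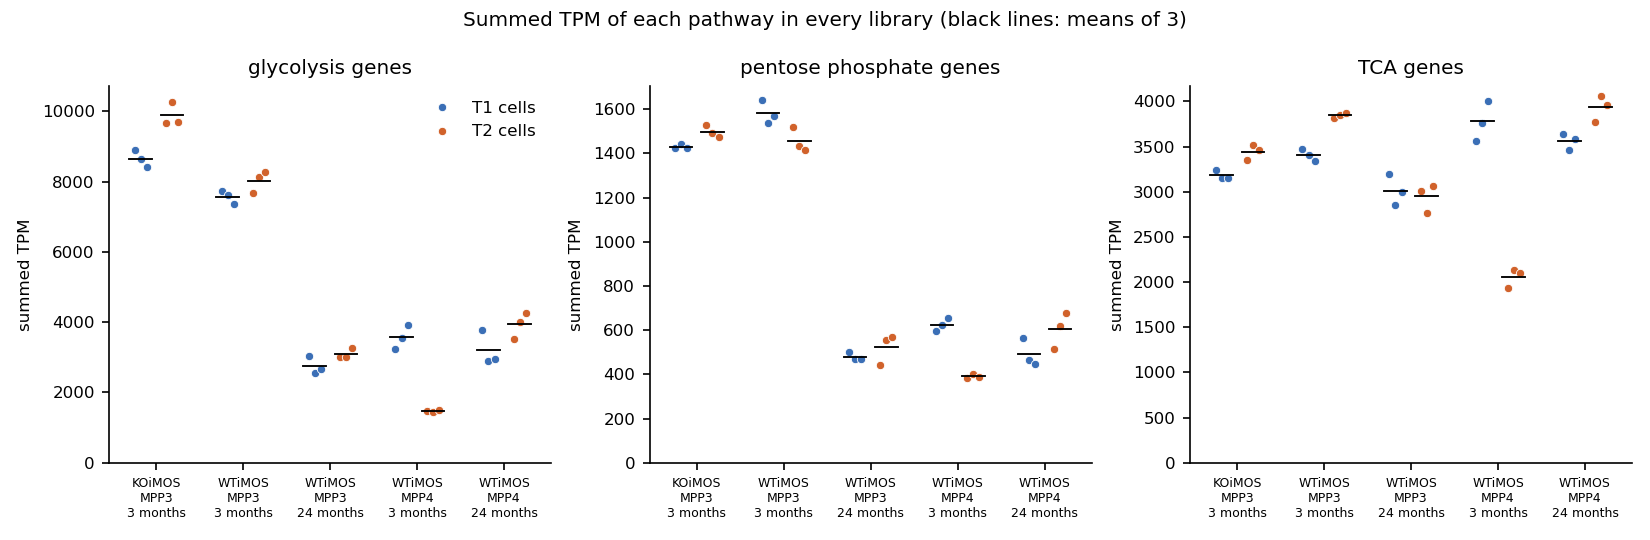
Summed TPM of the glycolysis, pentose phosphate and TCA genes in each of the 30 libraries, 1 panel per pathway, by table, with T1 and T2 libraries as separate points and a bar at each group's mean. The 3 months MPP3 tables stand highest in the glycolysis and pentose phosphate panels, and the T2 libraries of MPP4 at 3 months stand lowest in all 3, on the deposited scale without rescaling.

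T2 cells were compared with T1 cells in each table. In KOiMOS MPP3, 19 members were higher and 7 lower of 42 (45.2% and 16.7%), where 15.9% and 20.4% of all 12100 genes tested were, so higher calls were more frequent among the members than among all genes and lower calls were not. The changes were small, with a median of 0.10 and only Hk3 and Aldoc beyond 0.5 in either direction. By pathway, 9 higher and 5 lower of 21 glycolysis genes, 2 higher and 1 lower of 7 pentose phosphate genes and 8 higher and 1 lower of 14 TCA genes were called. Under rescaling 24 were higher and 4 lower, beside 19.7% and 17.7% of all genes. Without T1 replicate 1 the lower count was 4 on the deposited scale. The background was not matched on expression level here or in any table.

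WTiMOS MPP3 at 3 months had 9 members higher and 3 lower of 42 (21.4% and 7.14%), beside 8.39% and 5.96% of all 11723 genes. These were 6 higher and 1 lower of 21 in glycolysis, 0 higher and 2 lower of 7 in the pentose phosphate pathway and 3 higher and 0 lower of 14 in the TCA cycle, with a member median of 0.11. Rescaling left 6 higher and 4 lower, 14.3% and 9.52% beside 4.71% and 7.68% of all genes, and without T1 replicate 1 the deposited lower count was 1. In MPP3 at 24 months 12 of 41 members tested were higher and 5 lower (29.3% and 12.2%). These shares over all pathways were near those of all 11317 genes (30% and 12%). Glycolysis had 45% of 20 genes higher and 10% lower. The shares were 14.3% and 14.3% both for the 7 pentose phosphate genes and for the 14 TCA genes. Rescaled, 9 members were higher and 7 lower (background 18.8% and 18.7%). These were 7 higher and 3 lower in glycolysis (35% and 15%), 1 and 1 in the pentose phosphate pathway and 1 and 3 in the TCA cycle (7.14% and 21.4%). Whether the pathways differed was not tested. Single changes were large, up to 2.03 for Tkt and down to -1.20 for G6pdx.

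MPP4 at 3 months had 39 of 41 members lower in T2 and 1 higher, where 72.6% of all 11288 genes were lower and 8.71% higher. The member median was -1.09, below the -0.74 of all genes, with -1.30 in glycolysis, -0.75 in the pentose phosphate pathway and -1.08 in the TCA cycle. After rescaling 19 members were lower and 4 higher (46.3% and 9.76%), beside 26.8% and 25.5% of all genes: 11 of 20 glycolysis genes, 3 of 7 pentose phosphate genes and 5 of 14 TCA genes were lower. MPP4 at 24 months turned the other way, with 29 of 41 member higher and 1 lower, beside 58.2% and 7% of all 11366 genes. That count rested on the scale: rescaled, 6 were higher and 8 lower, 14.6% and 19.5%, against 14.9% and 19.2% of all genes. As deposited, 75% of the glycolysis, 57.1% of the pentose phosphate and 71.4% of the TCA genes were higher. Rescaled, 4 were higher and 1 lower of 20 in glycolysis, 1 and 2 of 7 in the pentose phosphate pathway and 1 and 5 of 14 in the TCA cycle.

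**Figure D2:**
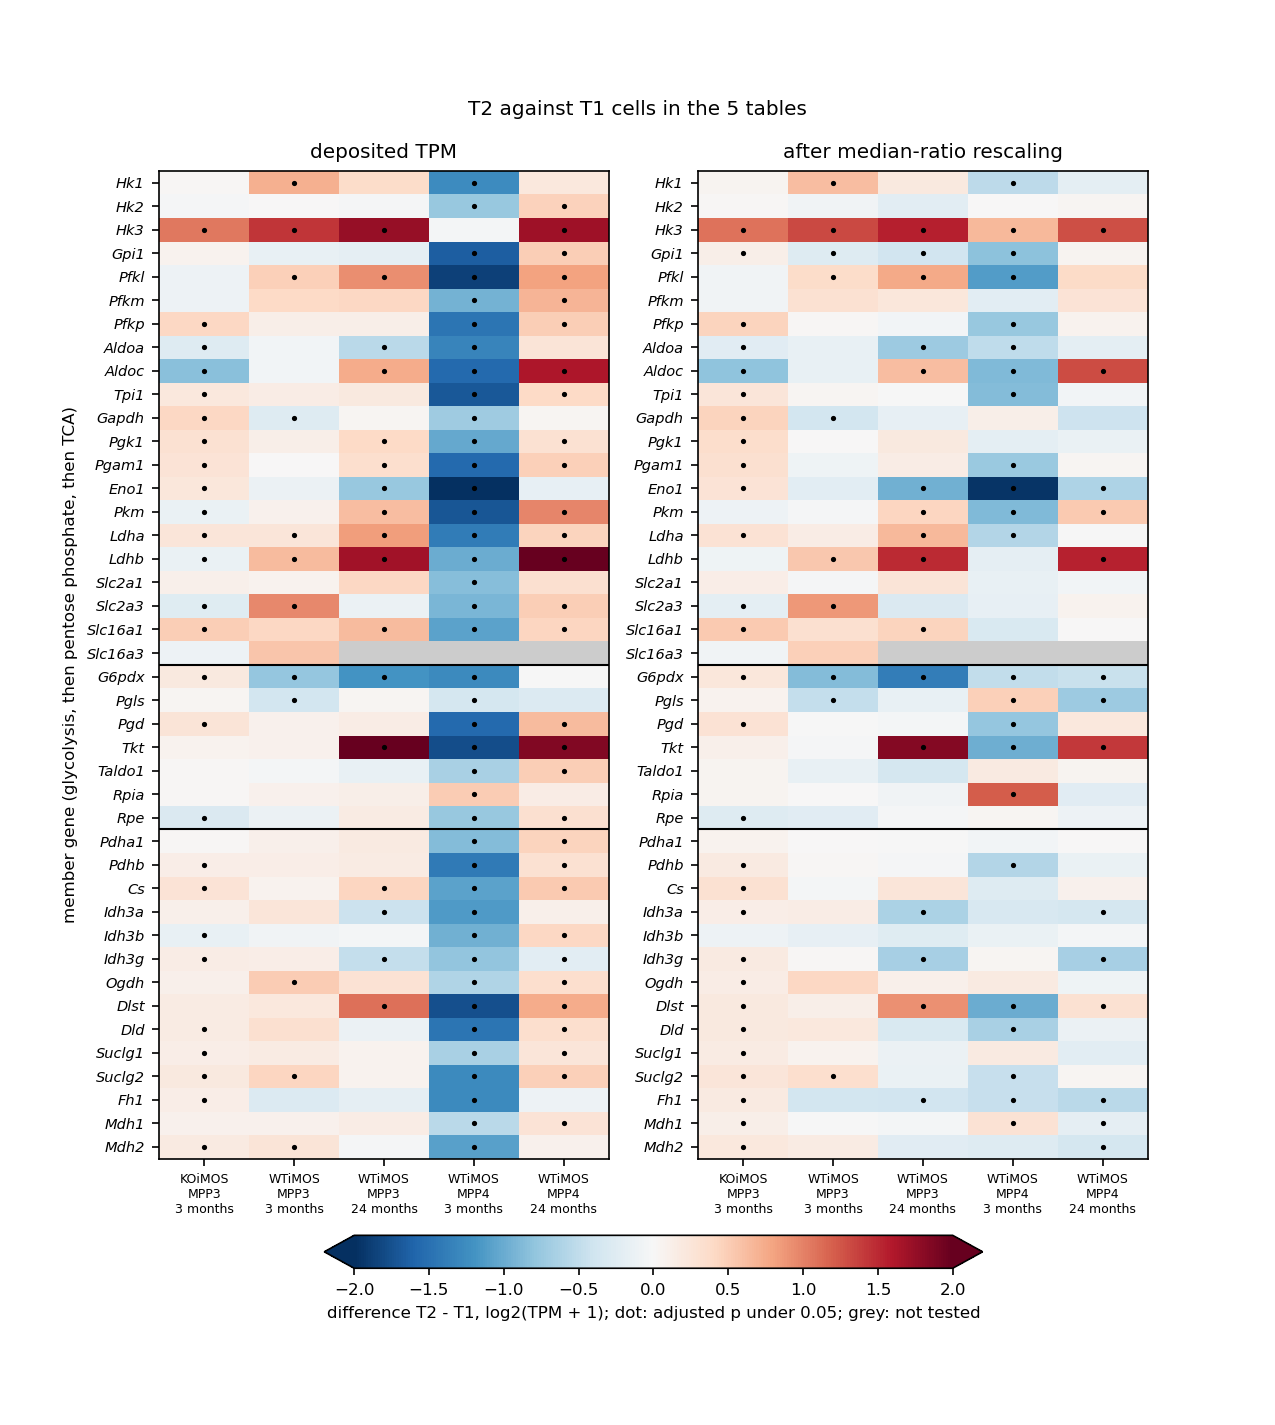
T2 minus T1 change in log2(TPM + 1) of each member (rows, by pathway) in the 5 tables (columns), red for higher and blue for lower in T2, with colour held at 2 in either direction, a dot where the adjusted p is under 0.05 and grey where a gene was not tested. The MPP4 column of 3 months is blue almost throughout and that of 24 months mostly red, on the deposited scale; 19 and 6 of these calls in those directions stand after rescaling, while the Hk3 row is red in 4 columns and on the rescaled scale higher in all 5.

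Hexokinases carry out the first step, the phosphorylation of glucose. Hk3, the isoform typical of myeloid cells, had in KOiMOS MPP3 its T1 libraries at 291, 279 and 297 TPM and the T2 libraries at 579, 609.8 and 612 TPM (log2 change 1.05 ± 0.042, adjusted p = 3.80e-09). Every T2 library stood above every T1 library, with a 2.08-fold higher level on the log2(TPM + 1) scale. In WTiMOS MPP3 at 3 months Hk3 read 51.5, 42 and 36.1 TPM in T1 and 107, 120.4 and 122 TPM in T2 (log2 change 1.42 ± 0.14, adjusted p = 2.03e-05). At 24 months MPP3 had its T1 libraries at 7.96, 10.3 and 6.57 TPM and the T2 libraries at 26.7, 29.5 and 32.7 TPM (log2 change 1.74 ± 0.16, adjusted p = 1.21e-05). At that age MPP4 had its T1 libraries at 4.43, 5.81 and 4.95 TPM and the T2 libraries at 20.1, 16.3 and 19.3 TPM (log2 change 1.69 ± 0.14, adjusted p = 1.21e-05). Groups did not overlap in any of these 4 tables. Lack of overlap was a condition for choosing called members to show by library, here and below, so it adds no support to the calls. In MPP4 at 3 months the deposited values overlapped, 5.86, 5.76 and 3.98 TPM in T1 and 6.30, 4.32 and 4.48 TPM in T2 (log2 change -0.039 ± 0.19, adjusted p = 0.851). The rescaled change was 0.65 (adjusted p = 0.00698), so the direction there turns with the scale. The summed neutrophil and monocyte markers given above were higher in T2 in KOiMOS MPP3, as Hk3 was. They were lower in T2 in the 3 WTiMOS tables where Hk3 was called higher, and in MPP4 at 3 months as deposited. The marker sum was not rescaled, so in MPP4 at 3 months it cannot be set beside the rescaled Hk3 change.

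Hk1, the housekeeping isoform, was higher in T2 in WTiMOS MPP3 at 3 months, from 115, 118 and 128 TPM to 181, 189 and 227 TPM (log2 change 0.71 ± 0.10, adjusted p = 5.27e-04), with no overlap. KOiMOS MPP3 showed no such step, at 330.5 ± 12.4 and 336 ± 8.88 TPM (SD, n = 3). These tables' steps differed by -0.69 ± 0.11 (adjusted p = 4.89e-04). In the 3 other tables Hk1 was far lower, between 4.57 and 19.9 TPM. Hk2, the inducible isoform, ran from 4.39 to 29.4 TPM over all libraries and was called lower in MPP4 at 3 months (-0.75, rescaled 0.0044 and not called) and higher in MPP4 at 24 months (0.45, rescaled 0.039 and not called).

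Phosphofructokinase sets the pace of glycolysis. Its liver-type subunit Pfkl was higher in T2 of WTiMOS MPP3 at 3 months, 195, 188 and 195 TPM in T1 and 259.7, 262 and 281 TPM in T2 (log2 change 0.47 ± 0.075, adjusted p = 0.00115). At 24 months it read 10.4, 10.6 and 6.91 and 15.5, 18.9 and 21.3 TPM (log2 change 0.94 ± 0.18, adjusted p = 0.00173). In KOiMOS MPP3 it was not called (188 ± 4.02 and 175 ± 2.27 TPM, SD, n = 3). Pfkp, the platelet-type subunit, was higher there, 34.7, 32.0 and 33.8 TPM in T1 and 42.9, 47.6 and 44.7 TPM in T2 (log2 change 0.42 ± 0.064, adjusted p = 2.94e-04). Neither set of libraries overlapped for the called genes. In MPP4 at 3 months Pfkl fell from 19.9 ± 1.17 to 4.77 ± 0.630 TPM (log2 change -1.86 ± 0.14, adjusted p = 2.88e-08; rescaled -1.12, adjusted p = 4.06e-05).

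The enzymes that split the sugar and run to phosphoenolpyruvate did not move as a block. In KOiMOS MPP3, aldolases were lower in T2: Aldoc read 11.7, 10.3 and 11.5 TPM in T1 and 5.15, 6.12 and 6.15 TPM in T2 (log2 change -0.84 ± 0.10, adjusted p = 4.42e-05). The main isoform Aldoa read 1080.3, 1071 and 1050.4 and 877, 912 and 880.2 TPM (log2 change -0.26 ± 0.038, adjusted p = 1.83e-04). The steps after them were higher. Gapdh, glyceraldehyde 3-phosphate dehydrogenase, read 1817, 1794 and 1634 TPM in T1 and 2306, 2478 and 2207 TPM in T2 (log2 change 0.41 ± 0.053, adjusted p = 7.01e-05). Pgk1, phosphoglycerate kinase, read 395, 367 and 360.2 and 458, 487 and 448 TPM (log2 change 0.31 ± 0.048, adjusted p = 3.12e-04). None of these 4 genes had overlapping libraries. Tpi1 (0.21), Pgam1 (0.28) and the enolase Eno1 (0.23) were called higher as well. WTiMOS MPP3 at 3 months had Gapdh lower in T2, from 969 ± 55.1 to 809.8 ± 65.7 TPM (SD, n = 3; log2 change -0.26 ± 0.069, adjusted p = 0.0249), a call that did not stand without T1 replicate 1 (-0.23) or T1 replicate 2 (-0.25).

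At 24 months Eno1 and Aldoa were lower in T2 MPP3. Eno1 had its T1 libraries at 406, 261 and 337 TPM and the T2 libraries at 161, 185 and 243 TPM (log2 change -0.76 ± 0.18, adjusted p = 0.00740). Aldoa went from 364 ± 33.8 to 253 ± 42.7 TPM (SD, n = 3; log2 change -0.54 ± 0.13, adjusted p = 0.00613). Pgk1 (0.39) and Pgam1 (0.34) were called higher on the deposited scale alone. The Pgk1 call ended without T1 replicate 1 (0.38) or T1 replicate 3 (0.38), and the Pgam1 call without T2 replicate 3 (0.32), T1 replicate 2 (0.29) or T1 replicate 3 (0.36). In MPP4 at 3 months Eno1 had the largest T2-T1 change of any member on the deposited scale, T1 libraries at 304, 403 and 509.8 TPM and the T2 libraries at 46.7, 67.8 and 58.7 TPM (log2 change -2.78 ± 0.22, adjusted p = 3.96e-05; rescaled -1.95). The near-identical gene Eno1b is listed apart, at 27.3 to 429 TPM over the libraries, and how shared reads were divided is not given, so the Eno1 level is uncertain. Tpi1, triosephosphate isomerase, fell there from 362, 410.1 and 451 to 122, 126 and 128 TPM (log2 change -1.69 ± 0.08, adjusted p = 4.09e-10). Pgam1 fell from 153, 163 and 173 to 56.6, 54.1 and 53.5 TPM (log2 change -1.55 ± 0.084, adjusted p = 1.17e-09). The isomerase Gpi1, at the branch point to the pentose phosphate pathway, fell from 123, 123 and 135 to 43.8, 35.3 and 40.9 TPM (log2 change -1.64 ± 0.10, adjusted p = 3.38e-09). All 3 stood clear of overlap and kept their call after rescaling, at -0.86, -0.74 and -0.83. Gapdh, by contrast, was -0.71 on the deposited scale and 0.11, not called, when rescaled.

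Aldoc was higher in T2 at 24 months, from a low level. MPP4 gave 1.95, 1.04 and 0.655 TPM in T1 and 4.65, 6.83 and 5.50 TPM in T2 (log2 change 1.62 ± 0.23, adjusted p = 2.64e-04; rescaled 1.31, adjusted p = 0.00172). MPP3 gave 1.16 ± 0.219 and 2.60 ± 0.454 TPM (SD, n = 3; log2 change 0.74 ± 0.18, adjusted p = 0.00765). At these levels the scale with 1 TPM added understates the ratio.

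Pyruvate kinase Pkm closes glycolysis. It was lower in T2 of MPP4 at 3 months, 154, 152 and 180.3 TPM in T1 and 52.7, 43.7 and 50.5 TPM in T2 (log2 change -1.71 ± 0.099, adjusted p = 2.23e-09; rescaled -0.89, adjusted p = 3.51e-05). It was higher in T2 at 24 months, 128, 101 and 110.2 and 188, 232 and 249 TPM (log2 change 0.97 ± 0.12, adjusted p = 1.19e-04; rescaled 0.53, adjusted p = 0.00690). The libraries overlapped in neither age. MPP3 T2 cells at 24 months were higher too (98.7 ± 5.76 to 153 ± 19.3 TPM, SD, n = 3; log2 change 0.62 ± 0.11, adjusted p = 0.00137). The 3 months MPP3 tables stayed within 885 to 1339.8 TPM.

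Lactate dehydrogenase is built from Ldha subunits, which favour lactate, and Ldhb subunits, which favour pyruvate. In MPP3 at 24 months Ldhb had its T1 libraries at 24.7, 21.0 and 21.2 TPM and the T2 libraries at 67.0, 69.8 and 84.9 TPM (log2 change 1.68 ± 0.13, adjusted p = 2.38e-06). In MPP4 at 24 months it had its T1 libraries at 39.1, 37.1 and 41.9 TPM and the T2 libraries at 139, 169 and 169.8 TPM (log2 change 1.99 ± 0.10, adjusted p = 2.83e-07). Both ages of MPP3 moved the same way in WTiMOS, since at 3 months Ldhb read 76.8, 77.2 and 65.6 TPM in T1 and 112, 117 and 113 TPM in T2 (log2 change 0.64 ± 0.11, adjusted p = 0.00153), again without overlap. In KOiMOS MPP3 it was slightly lower, 113 ± 2.07 against 104 ± 2.16 TPM in T2 (SD, n = 3; log2 change -0.13 ± 0.045, adjusted p = 0.0427; rescaled -0.091, adjusted p = 0.104), a call that ended without T2 replicate 1 (-0.11), T2 replicate 3 (-0.13), T1 replicate 1 (-0.13), T1 replicate 2 (-0.14) or T1 replicate 3 (-0.11). MPP4 at 3 months was lower on the deposited scale, from 170.4, 162 and 166 to 75.6, 89.3 and 83.9 TPM (log2 change -1.0 ± 0.083, adjusted p = 7.28e-08). It was not called when rescaled (-0.18, adjusted p = 0.188), though a fit with the GC content and length trend removed gave -0.58 (adjusted p = 1.01e-04).

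Ldha was among the most abundant members. It was higher in T2 in WTiMOS MPP3, 1391, 1447 and 1349.8 against 1647, 1687 and 1641 TPM at 3 months (log2 change 0.25 ± 0.048, adjusted p = 0.00404; rescaled 0.15, adjusted p = 0.135) and 368, 371 and 344 against 657, 634 and 652 TPM at 24 months (log2 change 0.84 ± 0.086, adjusted p = 2.13e-05). The groups were apart at both ages. Ldha was lower in T2 of MPP4 at 3 months, again without overlap, 463, 485 and 522 against 197, 178 and 178 TPM (log2 change -1.41 ± 0.07, adjusted p = 5.92e-10; rescaled -0.58). KOiMOS MPP3 had 0.24, and MPP4 at 24 months 0.44 as deposited and -0.0055, not called, when rescaled.

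**Figure D3:**
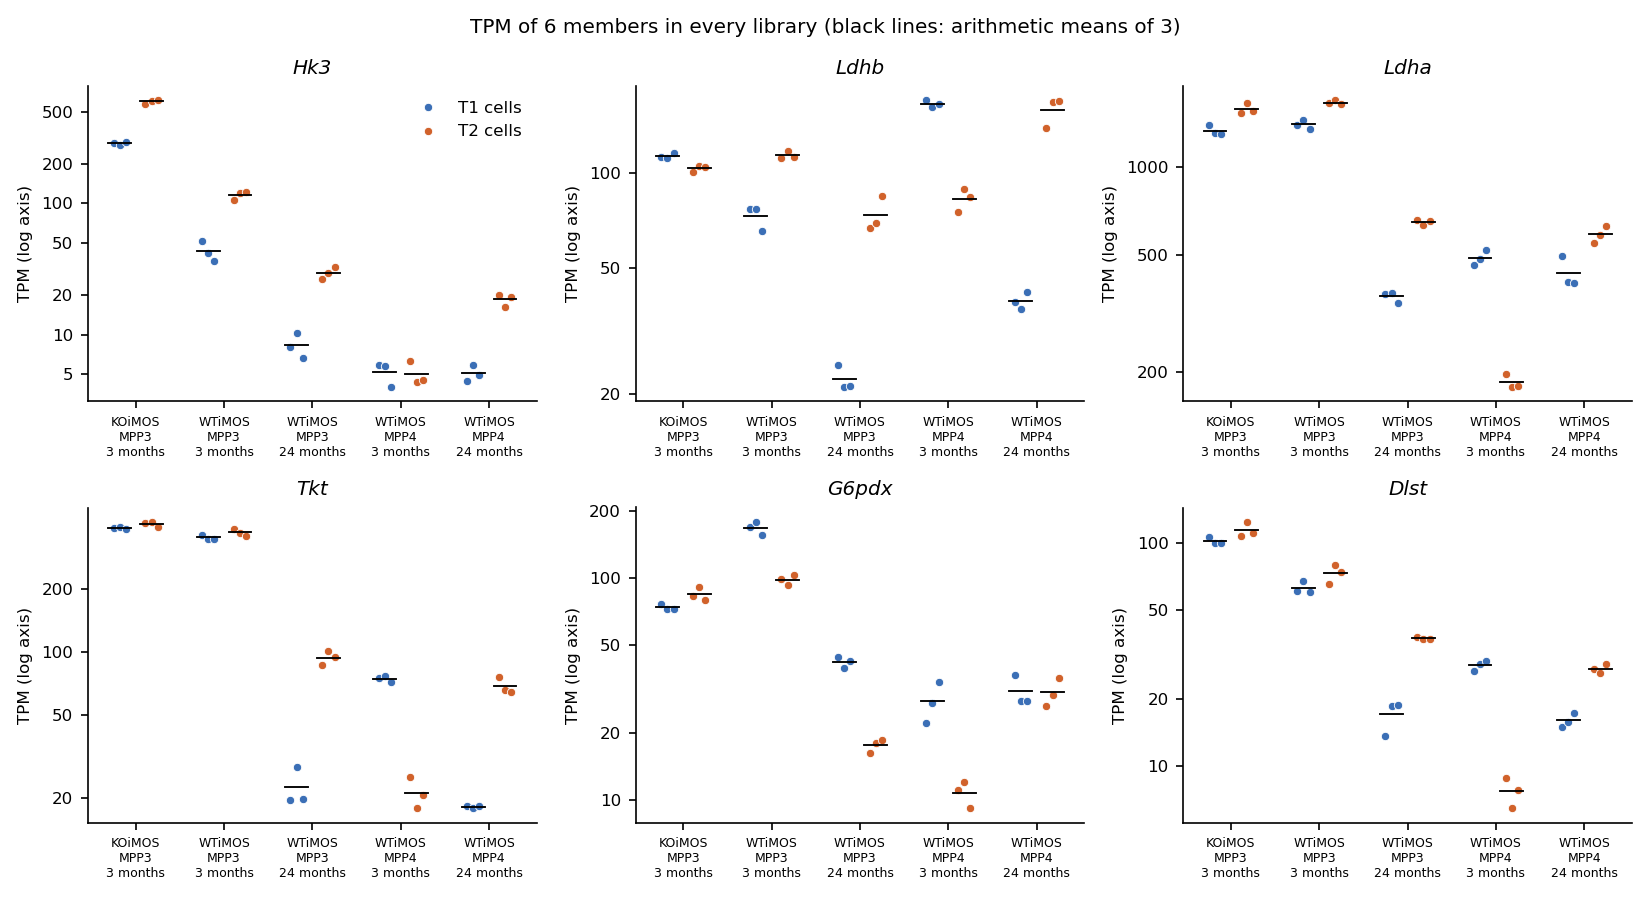
TPM of Hk3, Ldhb, Ldha, Tkt, G6pdx and Dlst in every library, on log axes, by table, with T1 and T2 libraries as separate points and a bar at each group's arithmetic mean. Ldhb and Tkt in the tables of 24 months and Hk3 in all tables but MPP4 of 3 months have every T2 library above every T1 library, and Ldhb and Tkt go the opposite way in MPP4 at 3 months on this deposited scale, where the rescaled Ldhb change of -0.18 was not called.

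Among the transporters, Slc2a3, a high-affinity glucose transporter, was higher in T2 of WTiMOS MPP3 at 3 months, 43.7 ± 13.2 to 83.5 ± 9.40 TPM (SD, n = 3; log2 change 0.96 ± 0.20, adjusted p = 0.00654). It was lower in KOiMOS MPP3, 49.6 ± 0.93 to 41.9 ± 2.51 TPM (log2 change -0.24 ± 0.061, adjusted p = 0.00896). Slc2a1, the basal glucose transporter, was called only in MPP4 at 3 months (-0.84, rescaled -0.14 and not called). Slc16a1, which carries lactate and pyruvate, was higher in T2 of KOiMOS MPP3 (0.48) and of MPP3 at 24 months (0.63), from 18.2 ± 2.02 to 28.9 ± 4.19 TPM in the latter. Slc16a3, the lactate exporter of strongly glycolytic cells, read 6.24 to 14.8 TPM in the MPP3 tables of 3 months and at most 0.760 TPM elsewhere, where it did not reach the level for testing.

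Shares within an enzyme family do not depend on the library's scale, since they are ratios within a library. An effect of transcript length or GC content would not cancel in them, and the shares were not recomputed without it. Ldhb has 1304 bases and Ldha 1815, for instance. In MPP4 at 3 months their rescaled T2-T1 log2 changes were -0.18 and -0.58. Removal of the GC content and length trend gave -0.58 and -0.76, with Ldhb still the smaller fall. Hk3 made up a larger share of the 3 hexokinases in T2 than in T1 in all 5 tables, with no overlap between groups. In MPP3 at 24 months it was 22.1, 24.7 and 18.8% in T1 and 48.4, 45.5 and 47.7% in T2. In MPP4 it was 17.9, 16.6 and 12.9% and 28.9, 26.3 and 27.9% at 3 months, and 17.1, 20.5 and 18.4% and 39.2, 38.5 and 40.9% at 24 months. In the MPP3 tables of 3 months it went from 44.0, 44.6 and 45.5% to 62.1, 62.1 and 62.9% in KOiMOS and from 30.1, 25.5 and 21.1% to 36.5, 38.4 and 34.4% in WTiMOS cells. Hk2 held up to 4.41% of hexokinase RNA in those tables and 23.8 to 47.9% in the other 3 tables. With 3 against 3 libraries an exact permutation test cannot give a p below 0.1, so these shares are given without one.

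The Ldhb share of lactate dehydrogenase RNA was higher in T2 in the 4 WTiMOS tables and lower in KOiMOS MPP3, again with no overlap. MPP4 at 24 months gave 7.27, 8.37 and 9.45% in T1 and 20.2, 22.4 and 21.2% in T2. MPP3 at 24 months gave 6.28, 5.35 and 5.79% and 9.26, 9.91 and 11.5%. MPP4 at 3 months stood highest, at 26.9, 25.0 and 24.2% in T1 and 27.8, 33.5 and 32.0% in T2. For MPP3 at 3 months the shares were 5.23, 5.07 and 4.64% and 6.36, 6.51 and 6.44% in WTiMOS, and 7.50, 7.88 and 8.20% and 6.21, 6.0 and 6.31% in KOiMOS cells. Pfkl held 65.6 to 76.5% of phosphofructokinase RNA in the MPP3 tables of 3 months and 25.5 to 46.7% elsewhere. Aldoa was at least 97.5% of the Aldoa and Aldoc sum in every library.

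**Figure D4:**
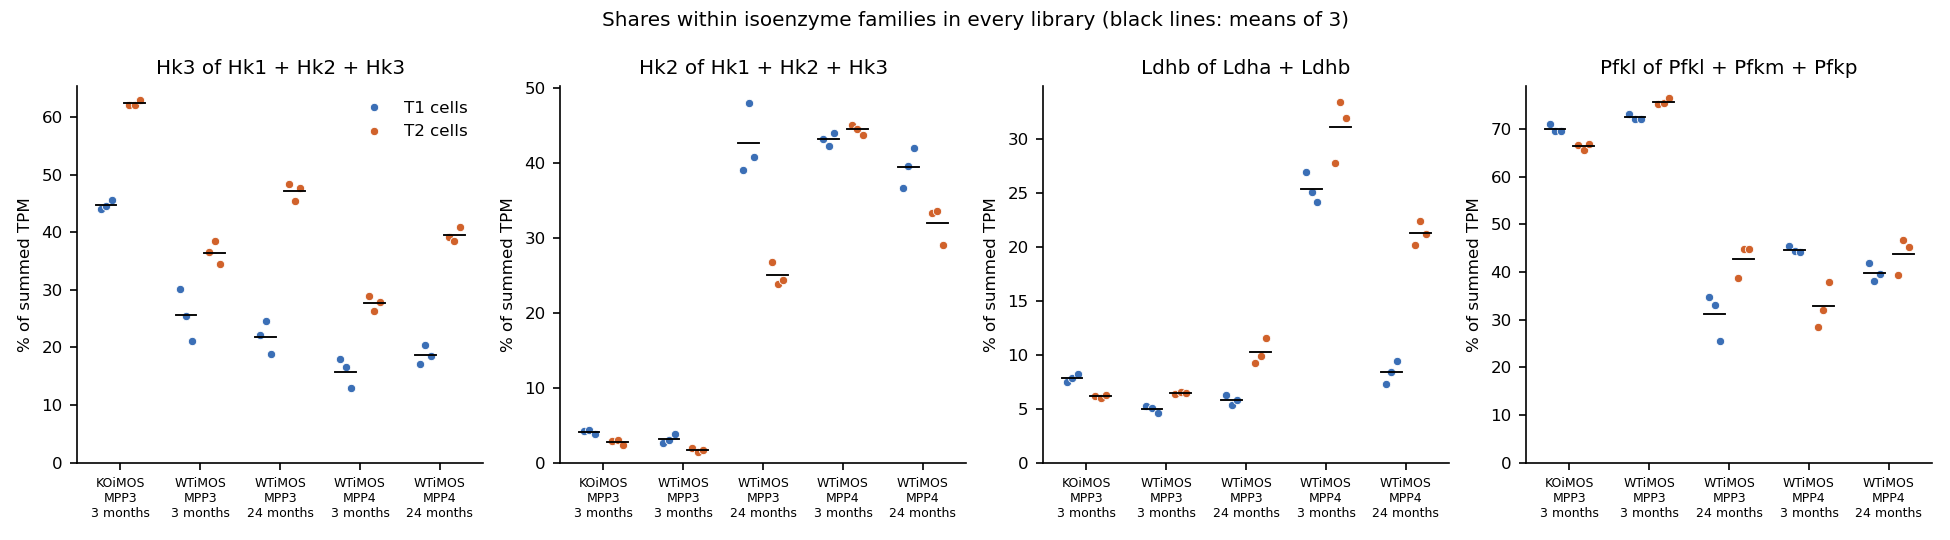
Share of each family's TPM, in percent, held by Hk3 and Hk2 among 3 hexokinases, Ldhb of Ldha and Ldhb, and Pfkl among 3 phosphofructokinases, in each library by table, with T1 and T2 libraries as separate points and a bar at each group's mean. Hk3 is higher in T2 in all 5 tables and Ldhb in all but KOiMOS MPP3, and Hk2 and Pfkl divide the MPP3 tables of 3 months from the other 3.

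The pentose phosphate pathway opens with G6pdx, glucose 6-phosphate dehydrogenase. It was lower in T2 of WTiMOS MPP3 at 3 months, 170.1, 179 and 155 TPM in T1 and 98.5, 92.9 and 103 TPM in T2 (log2 change -0.77 ± 0.095, adjusted p = 1.67e-04). At 24 months it read 44.1, 39.4 and 42.4 and 16.3, 18.2 and 18.6 TPM (log2 change -1.20 ± 0.12, adjusted p = 1.79e-05). Neither table had overlapping groups. KOiMOS MPP3 was slightly higher in T2, 73.7 ± 2.22 against 84.6 ± 6.16 TPM (SD, n = 3; log2 change 0.19 ± 0.059, adjusted p = 0.0231), a call lost without T2 replicate 2 (0.14), T1 replicate 2 (0.18) or T1 replicate 3 (0.18). In MPP4 it was lower at 3 months (-1.28, rescaled -0.50; -0.27 and not called after a trend on GC content and length was removed). At 24 months 30.9 ± 5.07 and 30.6 ± 4.39 TPM gave no call (log2 change -0.01 ± 0.14, adjusted p = 0.953) until rescaled (-0.44, adjusted p = 0.0335). Pgls, the lactonase that follows, was lower in T2 of WTiMOS MPP3 at 3 months (log2 change -0.37 ± 0.086, adjusted p = 0.0118), though not without T2 replicate 2 (-0.35) or T1 replicate 1 (-0.31). Pgd, which makes ribulose phosphate and further NADPH, was higher in KOiMOS MPP3 (log2 change 0.25 ± 0.048, adjusted p = 0.00140).

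Transketolase Tkt, of the reversible arm, had the largest T2-T1 rise of any member on the deposited scale. In MPP3 at 24 months it had its T1 libraries at 19.6, 28.2 and 19.8 TPM and the T2 libraries at 86.5, 101 and 95.1 TPM (log2 change 2.03 ± 0.15, adjusted p = 1.52e-06; rescaled 1.84). In MPP4 at 24 months it had its T1 libraries at 18.4, 17.9 and 18.4 TPM and the T2 libraries at 75.9, 65.7 and 64.5 TPM (log2 change 1.85 ± 0.10, adjusted p = 5.28e-07; rescaled 1.42). In MPP4 at 3 months it fell, from 75.1, 77.2 and 72.1 to 25.2, 17.9 and 20.8 TPM (log2 change -1.78 ± 0.12, adjusted p = 1.19e-08; rescaled -0.97, adjusted p = 1.95e-05; -0.66 with the GC content and length trend removed). Groups were apart in each of these 3 tables. The MPP3 tables of 3 months, with 347 to 421 TPM in every library, showed no called change (0.066 and 0.081). Taldo1, transaldolase of the same arm, did not follow Tkt in MPP3 at 24 months (206 ± 10.8 and 188 ± 36.2 TPM, log2 change -0.15 ± 0.14, adjusted p = 0.388). Rpia, ribose 5-phosphate isomerase, was the only member higher in T2 of MPP4 at 3 months on the deposited scale (4.41 ± 0.0702 to 6.72 ± 0.142 TPM, SD, n = 3; log2 change 0.51 ± 0.15, adjusted p = 0.00537; rescaled 1.21). Rpe was called lower in KOiMOS MPP3 (-0.29).

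The pyruvate dehydrogenase subunits Pdha1 and Pdhb, which admit pyruvate to the cycle, changed little in MPP3. Pdhb fell in MPP4 at 3 months from 341, 367 and 351 to 121, 137 and 138 TPM (log2 change -1.42 ± 0.074, adjusted p = 8.46e-10; rescaled -0.59, adjusted p = 4.90e-04), without overlap, and Pdha1 by a deposited -0.87 that rescaling took to -0.055, not called. Citrate synthase Cs was higher in T2 of KOiMOS MPP3 (173 ± 13.2 to 209 ± 15.0 TPM, SD, n = 3; log2 change 0.27 ± 0.064, adjusted p = 0.00710). It was also called higher on the deposited scale in both tables of 24 months (0.43 in MPP3 and 0.53 in MPP4), and not when rescaled (0.24 and 0.091). The MPP3 call ended without T1 replicate 3 (0.36).

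Isocitrate dehydrogenase 3 subunits were lower in T2 of MPP3 at 24 months for Idh3a (132 ± 2.42 to 97.4 ± 6.54 TPM, SD, n = 3; log2 change -0.44 ± 0.098, adjusted p = 0.00434) and the X-linked Idh3g (619 ± 44.8 to 446 ± 59.2 TPM; log2 change -0.48 ± 0.11, adjusted p = 0.00515). Idh3b gave no call (log2 change -0.043 ± 0.10, adjusted p = 0.769). Idh3g was also the only member called lower in MPP4 at 24 months (log2 change -0.21 ± 0.084, adjusted p = 0.0420; rescaled -0.66), a call lost on the deposited scale without T2 replicate 1 (-0.13), T2 replicate 2 (-0.24), T1 replicate 1 (-0.18), T1 replicate 2 (-0.24) or T1 replicate 3 (-0.22). In KOiMOS MPP3 Idh3g was higher (0.14) and Idh3b lower (-0.14), the latter not called when rescaled (-0.11). Without T2 replicate 2 (0.10), T2 replicate 3 (0.15), T1 replicate 2 (0.13) or T1 replicate 3 (0.12) the Idh3g call ended, and without T1 replicate 1 (-0.13) or T1 replicate 3 (-0.13) that of Idh3b.

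The oxoglutarate dehydrogenase complex has the subunits Ogdh, Dlst and Dld. Dlst, its succinyltransferase, was higher in T2 of MPP3 at 24 months, 13.7, 18.7 and 18.8 TPM in T1 and 38.0, 37.1 and 37.0 TPM in T2 (log2 change 1.10 ± 0.14, adjusted p = 1.17e-04; rescaled 0.91). MPP4 at 24 months gave 15.0, 15.8 and 17.2 and 27.1, 26.3 and 28.7 TPM (log2 change 0.74 ± 0.11, adjusted p = 3.13e-04; rescaled 0.31, adjusted p = 0.0409). It was lower in MPP4 at 3 months, 26.7, 28.6 and 29.6 and 8.87, 6.46 and 7.84 TPM (log2 change -1.76 ± 0.14, adjusted p = 4.03e-08; rescaled -0.99). Groups did not overlap in these tables. Its partners did not share the rise in MPP3 at 24 months, where Ogdh (log2 change 0.29 ± 0.13, adjusted p = 0.0860) and Dld (log2 change -0.11 ± 0.12, adjusted p = 0.463) gave no call. Ogdh was higher in WTiMOS MPP3 at 3 months (70.8 ± 13.1 to 101 ± 13.7 TPM, SD, n = 3; log2 change 0.51 ± 0.15, adjusted p = 0.0343). This call ended under rescaling (0.41, adjusted p = 0.0678) and without T2 replicate 2 (0.53), T2 replicate 3 (0.41), T1 replicate 1 (0.37) or T1 replicate 2 (0.54).

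The later enzymes named here had called changes of 0.14 to 0.43 in the MPP3 tables of 3 months. In MPP4 at 24 months 5 of 14 TCA genes were called lower and 1 higher when rescaled. The signs of Suclg1, Mdh1 and Mdh2 turned there, as listed at the end. Suclg2, a subunit of succinyl-CoA ligase, was higher in T2 of WTiMOS MPP3 at 3 months (137 ± 4.60 to 186 ± 18.9 TPM, SD, n = 3; log2 change 0.43 ± 0.095, adjusted p = 0.00924). So was mitochondrial malate dehydrogenase Mdh2 on the deposited scale (log2 change 0.26 ± 0.065, adjusted p = 0.0175; rescaled 0.16, adjusted p = 0.228; not called without T1 replicate 3 (0.20)). In KOiMOS MPP3 Suclg2 (0.20), Mdh2 (0.18) and the fumarase Fh1 (0.14) were each called higher by a small amount. Fh1 was not called without T2 replicate 1 (0.13), T2 replicate 3 (0.13), T1 replicate 2 (0.11) or T1 replicate 3 (0.14). In MPP4 at 3 months the cytosolic malate dehydrogenase Mdh1 turned with the scale, from -0.54 as deposited to 0.28 (adjusted p = 0.0203) when rescaled, and at 24 months from 0.27 to -0.18 (adjusted p = 0.0404).

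Whether the T2-T1 step differed between tables was tested by an interaction term, in which a shift common to a table's groups cancels. KOiMOS minus WTiMOS MPP3 at 3 months gave 7 members higher and 8 lower of 42, beside 7.84% and 13% of all genes. The step of G6pdx was 0.96 ± 0.11 higher in KOiMOS (adjusted p = 2.76e-05) and that of Gapdh 0.67 ± 0.093 higher (adjusted p = 1.81e-04). Those of Ldhb (-0.76 ± 0.099, adjusted p = 1.02e-04) and Pfkl (-0.58 ± 0.071, adjusted p = 7.06e-05) were lower. Rescaled, the members were 11 higher and 5 lower (background 11.6% and 7.27%). All 8 lower calls on the deposited scale were glycolysis genes, among them Hk1, Slc2a3 and Aldoc. Without KOiMOS T2 replicate 1 the 15 calls were 9. Between ages in MPP3, 5 members were higher and 5 lower at 24 months, beside 9.8% and 5.36% of all genes, and rescaled 5 higher and 7 lower (background 8.7% and 6.52%). Tkt (1.95 ± 0.17, adjusted p = 2.52e-06), Ldhb (1.05 ± 0.17, adjusted p = 6.16e-04) and Ldha (0.59 ± 0.094, adjusted p = 6.21e-04) had the higher step at 24 months, and Idh3a the lower (-0.68 ± 0.12, adjusted p = 0.00155). The rescaled values of these 8 genes kept sign and call.

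In MPP4 the step was higher at 24 than at 3 months for 39 of 41 members, and lower for none, beside 76.4% and 7.4% of all genes. After rescaling they were 18 higher and 6 lower (background 25.5% and 22.9%). By adjusted p the first 4 were Ldhb (2.98 ± 0.13, rescaled 1.70), Tkt (3.63 ± 0.16, rescaled 2.37), Pdhb (1.72 ± 0.10, rescaled 0.44) and Pkm (2.68 ± 0.16, rescaled 1.40), with deposited values of 3.46e-11, 4.12e-11, 6.03e-10 and 8.25e-10. Gapdh turned, from 0.75 to -0.54 (adjusted p = 0.0476). MPP4 against MPP3 at 3 months gave 40 of 42 members with a lower step, and none with a higher one, beside 57.6% and 7.28% of all genes. Rescaled they were 5 higher and 18 lower (background 20.2% and 16.1%). Pfkl (-2.33 ± 0.15, rescaled -1.43), Tpi1 (-1.84 ± 0.12, rescaled -0.83), Ldha (-1.65 ± 0.09, rescaled -0.64) and Pdhb (-1.55 ± 0.099, rescaled -0.54) were lower on both scales. At 24 months the 2 progenitors differed in 10 members higher and 1 lower in MPP4, beside 16.2% and 4.4% of all genes, and rescaled 2 higher and 2 lower (background 7.28% and 9.46%). There G6pdx (1.19 ± 0.18, adjusted p = 5.20e-04; rescaled 0.96) and Gpi1 (0.68 ± 0.13, adjusted p = 0.00300; rescaled 0.44) held on both scales, and Idh3a (0.53 ± 0.12, adjusted p = 0.00593) and Aldoa (0.79 ± 0.18, adjusted p = 0.00734) on the deposited scale alone. Leaving out T1 replicate 1 or 3 or T2 replicate 2 of MPP3, or T1 replicate 2 or 3 or T2 replicate 2 or 3 of MPP4, brought the 11 calls to 5 or 6. These contrasts share tables, so they are not independent of each other.

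Levels were also set across tables, where table and group cannot be told apart. KOiMOS against WTiMOS MPP3 at 3 months had 19 members higher and 10 lower of 42 (background 38% and 28.3%) in T1 cells and 18 members higher and 12 lower of 42 (background 25.9% and 28.9%) in T2 cells, where the background is the share of all genes. Rescaled they were 16 higher and 12 lower (background 34.3% and 31.5%) in T1 and 19 higher and 12 lower (background 29.4% and 25.8%) in T2. Hk3 averaged 289 ± 9.21 against 43.2 ± 7.74 TPM in T1 (log2 difference 2.73 ± 0.11, adjusted p = 1.30e-07) and 600.3 ± 18.7 against 117 ± 8.36 TPM in T2 (log2 difference 2.36 ± 0.069, adjusted p = 6.99e-08), with SD and n = 3 throughout. The housekeeping isoform Hk1 averaged 330.5 ± 12.4 against 120.4 ± 6.91 TPM in T1 (log2 difference 1.45 ± 0.055, adjusted p = 9.82e-08). Gapdh was higher in KOiMOS T2 (2330.2 ± 137 against 809.8 ± 65.7 TPM), and Pdhb lower in both T1 (184 ± 4.48 against 332 ± 1.81 TPM) and T2 (202 ± 7.04 against 363 ± 6.34 TPM).

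MPP3 at 24 against 3 months had 5 members higher and 36 lower of 42 (background 26.3% and 54.3%) in T1 and 3 members higher and 34 lower of 42 (background 24.3% and 50.4%) in T2 cells. Rescaled they were 7 higher and 28 lower (background 39.2% and 41.4%) in T1 and 8 higher and 27 lower (background 36.4% and 36.7%) in T2. In T1, Pkm averaged 98.7 ± 5.76 against 1208 ± 45.2 TPM (log2 difference -3.60 ± 0.068, adjusted p = 3.27e-12), Ldha 361 ± 14.8 against 1396 ± 49.0 TPM and Tkt 22.6 ± 4.93 against 354 ± 9.84 TPM. In T2, Pfkl averaged 18.6 ± 2.91 against 268 ± 12.1 TPM (log2 difference -3.79 ± 0.14, adjusted p = 3.76e-10), Pkm 153 ± 19.3 against 1277 ± 83.3 TPM and Hk1 17.6 ± 3.41 against 199 ± 24.7 TPM. With the GC content and length trend removed the log2 difference of Pkm in T1 was -1.70, and that of Pfkl in T2 -1.98. On the deposited scale MPP4 went in opposite directions. T1 cells had 1 member higher and 22 lower of 41 (2.44% and 53.7%, background 7.18% and 55.4%), with the lower share near that of all genes. By adjusted p the first were Ldhb (39.3 ± 2.39 against 166 ± 4.15 TPM), Tkt (18.3 ± 0.294 against 74.8 ± 2.57 TPM) and Aldoc (1.21 ± 0.663 against 8.48 ± 1.94 TPM). Rescaled they were 8 higher and 4 lower (background 19.6% and 17.2%). T2 cells of MPP4 had 39 members higher and 0 lower of 41 (background 72.6% and 8.33%). By adjusted p the first were Ldha (589 ± 39.0 against 184 ± 10.8 TPM), Pkm (223 ± 31.6 against 49.0 ± 4.69 TPM) and Pgam1 (187 ± 16.6 against 54.7 ± 1.67 TPM). Rescaled they were 21 higher and 3 lower (background 24.3% and 24.5%), so on that scale higher calls outnumbered lower ones in both T1 and T2.

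MPP4 against MPP3 at 3 months had 6 members higher and 30 lower of 42 (background 33.3% and 44%) in T1 and 3 members higher and 38 lower of 42 (background 20.5% and 62.2%) in T2 cells. Rescaled they were 7 higher and 28 lower (background 39.2% and 38.3%) in T1 and 8 higher and 31 lower (background 38.1% and 41.5%) in T2. With the GC content and length trend removed they were 12 higher and 27 lower in T1 and 9 higher and 30 lower in T2. Of all genes, 3989 were then higher and 4190 lower of 11373 in T1, and 3896 and 4369 of 11128 in T2. Pkm averaged 162 ± 15.7 against 1208 ± 45.2 TPM in T1 and 49.0 ± 4.69 against 1277 ± 83.3 TPM in T2, and Pfkl 19.9 ± 1.17 against 193 ± 4.06 TPM and 4.77 ± 0.630 against 268 ± 12.1 TPM. Tkt in T1 averaged 74.8 ± 2.57 against 354 ± 9.84 TPM, and Ldha in T2 184 ± 10.8 against 1658 ± 25.1 TPM. These enzymes were lower in MPP4 on both scales, by less once a trend on GC content and length was removed (-1.64 for Pkm and -0.96 for Tkt in T1, from -2.89 and -2.23). At 24 months there were 7 members higher and 7 lower of 41 (background 14.6% and 10.1%) in T1 and 19 members higher and 5 lower of 41 (background 31.6% and 7.19%) in T2 cells. Rescaled they were 5 higher and 7 lower (background 12.1% and 11.2%) in T1 and 8 higher and 8 lower (background 14.1% and 14.3%) in T2. Ldhb was higher in MPP4 in T1 (39.3 ± 2.39 against 22.3 ± 2.09 TPM; log2 difference 0.79 ± 0.10, adjusted p = 1.99e-04) and T2 (159 ± 17.2 against 73.9 ± 9.64 TPM; log2 difference 1.10 ± 0.13, adjusted p = 1.20e-04). Without T1 replicate 2 or 3 of MPP3, or 1 or 3 of MPP4, the 14 calls in T1 were 7 to 9. In T1, Pgd was lower (16.9 ± 0.189 against 29.5 ± 3.77 TPM) and Idh3g higher (808 ± 36.4 against 619 ± 44.8 TPM), and in T2, Idh3a (159 ± 13 against 97.4 ± 6.54 TPM) and Idh3b (215 ± 14.2 against 138 ± 12.1 TPM) were higher in MPP4. All named differences kept their sign and call when rescaled.

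A further 54 genes of these pathways and their regulators were listed beside the members, and T2 was set against T1 in those tested. In KOiMOS MPP3 11 were higher and 6 lower of 45 (all genes 15.9% and 20.4%), and rescaled 15 and 6 (all genes 19.7% and 17.7%). Among those of WTiMOS MPP3 at 3 months 6 were higher and 1 lower of 42 (all genes 8.39% and 5.96%), and rescaled 5 and 1 (all genes 4.71% and 7.68%). For MPP3 at 24 months 13 were higher and 1 lower of 42 (all genes 30% and 12%), and rescaled 10 and 7 (all genes 18.8% and 18.7%). For MPP4, at 3 months 2 were higher and 36 lower of 41 (all genes 8.71% and 72.6%), and rescaled 6 and 12 (all genes 25.5% and 26.8%). At 24 months in MPP4 28 were higher and 1 lower of 41 (all genes 58.2% and 7%), and rescaled 6 and 6 (all genes 14.9% and 19.2%). Fbp1, the fructose bisphosphatase that opposes phosphofructokinase, was higher in T2 in WTiMOS MPP3 at 3 months (19.4 ± 2.76 to 50.2 ± 3.00 TPM, log2 change 1.34 ± 0.16, adjusted p = 1.12e-04). It was also higher in MPP3 at 24 months (4.50 ± 2.29 to 27.2 ± 2.5 TPM, log2 change 2.43 ± 0.24, adjusted p = 2.82e-05) and in MPP4 at 24 months (7.38 ± 0.749 to 42.2 ± 4.28 TPM, log2 change 2.36 ± 0.12, adjusted p = 3.79e-07), with SD and n = 3. Idh1, the cytosolic NADP-linked isocitrate dehydrogenase, was lower in WTiMOS MPP3 at 3 months (126 ± 7.40 to 76.1 ± 6.52 TPM, log2 change -0.72 ± 0.11, adjusted p = 6.52e-04) and at 24 months (55.2 ± 1.19 to 24.3 ± 3.12 TPM, log2 change -1.16 ± 0.13, adjusted p = 3.29e-05). In KOiMOS MPP3 the red-cell pyruvate kinase Pklr rose from a low level (0.427 ± 0.239 to 4.30 ± 1.14 TPM, log2 change 1.89 ± 0.18, adjusted p = 7.04e-06), beside the erythroid marker list at 879 to 956 TPM in T1 and 2593 to 2726 TPM in T2, whose part in it was not tested. Me2, malic enzyme, was higher there (0.45). Myc, a regulator of glycolytic genes, was lower in KOiMOS MPP3 (659 ± 2.81 to 534 ± 5.58 TPM, log2 change -0.30 ± 0.037, adjusted p = 4.23e-05). It was higher in WTiMOS MPP3 at 3 months (537 ± 17.9 to 727 ± 56.0 TPM, log2 change 0.43 ± 0.067, adjusted p = 9.88e-04) and higher in MPP4 at 24 months (108 ± 2.26 to 192 ± 16.0 TPM, log2 change 0.82 ± 0.083, adjusted p = 4.01e-05). Pgm2 was higher in MPP3 at 24 months (1.12), and Pdk1, which inhibits pyruvate dehydrogenase, in MPP4 at 24 months (1.0). For MPP4 at 3 months the mitochondrial Idh2 (-1.73), Prps1 (-1.78) and Sucla2 (-1.35) were lower, by more than the median of all genes. Values of single genes of this list are as deposited, without a rescaled value beside them. The deposited median of all genes was -0.74 in MPP4 at 3 months and 0.43 at 24 months, so changes there include that shift.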

How the data were processed

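RNA from sorted mouse bone marrow MPP3 and MPP4 cells was amplified with a low-input cDNA kit and sequenced, per the labels' protocols. The authors deposited 5 tables of TPM (transcript abundance per fixed library total) for 30 libraries, each column summing to the same total. The submitters' processing notes name HISAT2, StringTie, featureCounts and DESeq2 with build mm10, without versions, and do not say which of them gave the TPM. No read counts can be had from TPM, so sequencing depth is unknown, and no counting interval is given. How reads shared by near-identical copies (Eno1 and Eno1b, or Gapdh, Aldoa, Pgk1 and their relatives) were divided is likewise not given. Groups came from the sample titles.

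Log2(TPM + 1) was tested with limma 3.58.1 (R 4.3.3, moderated test with trend and robust options) on the libraries of the groups compared, over genes reaching 1 TPM in 3 or more libraries, with Benjamini-Hochberg adjustment over all genes tested and calls at 0.05. Fold changes on this scale understate the change of low genes. Changes are T2 minus T1, ± the standard error of the fit, and levels are means ± SD of 3 libraries. Alternatives were rescaling by median-ratio size factors within the libraries compared, a pseudocount of 0.1, no filter, all 30 libraries in 1 fit with table weights, a replicate block, each library left out and, added after the data were seen, removal of a spline trend (4 df) on GC content and transcript length from GENCODE vM21. The code was tested on simulated data. Values in every library were given for called members without overlap, up to 6 per T2-T1 comparison by smallest adjusted p where the higher group averaged at least 5 TPM, with up to 4 per difference of steps and 3 per level comparison named by the same order, and up to 3 other pathway genes per comparison. Members outside this rule were named after their values were seen. The members and all lists were chosen with earlier results of these data known. Promoter sequences came from RefSeq (GRCm38.p6), and Slc16a3 was not tested where it failed the filter.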

Additional observations from a re-analysis of the deposited data

Results flagged for a closer look

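For 20 gene and table pairs, the 4 members with the smallest adjusted p in each contrast, the T2-T1 step differed between tables by an interaction term in limma; the cause was not tested. Values are differences of log2 steps. KOiMOS minus WTiMOS MPP3 at 3 months gave G6pdx 0.96, Gapdh 0.67, Pfkl -0.58 and Ldhb -0.76. For MPP3, 24 minus 3 months gave Tkt 1.95, Ldhb 1.05, Ldha 0.59 and Idh3a -0.68. For MPP4, 24 minus 3 months gave Tkt 3.63, Ldhb 2.98, Pkm 2.68 and Pdhb 1.72. At 3 months, MPP4 minus MPP3 gave Pfkl -2.33, Tpi1 -1.84, Ldha -1.65 and Pdhb -1.55. At 24 months, MPP4 minus MPP3 gave G6pdx 1.19, Aldoa 0.79, Gpi1 0.68 and Idh3a 0.53; the Aldoa and Idh3a values were not called after rescaling (0.56 and 0.30).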

How the results depend on the processing

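TPM keeps no depth, and the median of all genes moved in both MPP4 tables, so counts of called members there depend on the scale. In 3 tables donor sex cannot be told apart from T1 and T2. A pseudocount of 0.1 left all counts of called members within 1.5 times. Rescaling gave 4 lower in KOiMOS MPP3, 23 called in MPP4 at 3 months (4 higher, 19 lower) and 14 in MPP4 at 24 months (6 higher, 8 lower). It gave 24 and 23 for the differences of steps between ages in MPP4 and between progenitors at 3 months, 4 between progenitors at 24 months, and for levels 12 and 24 in MPP4 T1 and T2 between ages. With the GC content and length trend removed there were 8 lower in MPP3 at 24 months, 5 higher and 23 lower in MPP4 at 3 months, and 14 called in MPP4 at 24 months (6 higher, 8 lower), 26 and 7 steps between progenitors at 3 and 24 months, and 15 level differences between ages in MPP4 T1. Of all genes, 2118 of 10868 were then lower in MPP3 at 24 months. In MPP4, 2768 were higher and 2949 lower of 10836 at 3 months, and 1568 and 1789 of 10913 at 24 months. Without the filter WTiMOS MPP3 at 3 months had 7 called (1 lower), MPP4 at 24 months 0 lower, the steps between progenitors at 24 months 7 and their T1 levels 6. All 30 libraries in 1 fit gave 7 called (1 lower) in WTiMOS MPP3 at 3 months, 2 lower in MPP4 at 24 months and 9 for the steps of KOiMOS minus WTiMOS. By direction, removal of that trend gave 8 steps lower between ages in MPP3, 22 higher and 5 lower between ages in MPP4, 4 and 22 between progenitors at 3 months and 4 and 3 at 24 months. The steps of all genes were lower for 946 of 11892 between ages in MPP3. Between ages in MPP4, 2939 were higher and 2565 lower of 11315. Between progenitors these were 1923 and 2446 of 11868 at 3 months and 849 and 1084 of 11420 at 24 months. For levels removal of that trend gave 9 and 9 higher in T1 and T2 between ages in MPP3, 11 higher and 4 lower in T1 and 25 and 4 in T2 between ages in MPP4, and 10 lower in T2 between progenitors at 24 months. Levels of all genes were higher for 3944 of 11200 and 3536 of 11247 between ages in MPP3. In MPP4 they were higher for 1837 and lower for 1626 of 10880 in T1, and 2829 and 2614 of 10822 in T2. Between progenitors at 24 months 1847 of 11050 were lower in T2. Without the filter 3 steps were lower between ages in MPP3 and 0 between progenitors at 24 months, whose T1 levels had 3 higher and 3 lower. All 30 libraries in 1 fit gave 3 steps higher in KOiMOS. The cause of these moves was not tested. Counts without the filter, from the single fit, from the replicate block and from leaving out a library are given without the share of all genes. They show only how far a count of members moved.

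Signs of log2 changes that turned under rescaling in MPP4 at 3 months became Hk2 0.0044, Hk3 0.65, Gapdh 0.11, Pgls 0.48, Taldo1 0.18, Rpe 0.045, Idh3g 0.042, Ogdh 0.18, Suclg1 0.18 and Mdh1 0.28. With the GC content and length trend removed they became Hk2 0.13, Hk3 1.09, Pfkm 0.14, Gapdh 0.38, Slc2a1 0.27, Pgls 0.71, Ogdh 0.42, Suclg1 0.16 and Mdh1 0.056. In MPP4 at 24 months rescaling gave Tpi1 -0.055, Pgk1 -0.14, Ldha -0.0055, Rpe -0.11, Pdhb -0.14, Idh3a -0.35, Idh3b -0.035, Ogdh -0.086, Dld -0.11, Suclg1 -0.21, Mdh1 -0.18 and Mdh2 -0.36, and removal of that trend Hk1 -0.40, Hk2 -0.082, Gpi1 -0.029, Gapdh -0.50, Rpe -0.034, Pdhb -0.0052, Idh3a -0.26, Ogdh -0.22 and Suclg1 -0.13. In the T2-T1 comparisons no other alternative turned the sign of a member that was called before or after; signs of members called in neither also turned and are not given. Hk3 in the 3 MPP3 tables and MPP4 at 24 months, Ldhb in the WTiMOS MPP3 tables and MPP4 at 24 months, and Tkt in both tables of 24 months kept sign and call under all 12 alternatives.

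Same-numbered T1 and T2 libraries correlated at r = -0.20 to 0.13 in their deviations from group means, not above 0.1 throughout any table. With so few libraries these values cannot show whether same-numbered libraries share an animal or a batch. The main fits were unpaired. A replicate block gave 21, 12, 17, 40 and 27 called members in KOiMOS MPP3, WTiMOS MPP3 at 3 and 24 months and MPP4 at 3 and 24 months, with 0 lower in the last. It gave 12 higher in T1 levels between progenitors at 24 months, and moved no other count of members by over 1.5 times.

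Leaving out 1 library gave 18 to 24 called members in KOiMOS MPP3 (13 to 19 higher, 4 to 7 lower), 9 to 12 in WTiMOS MPP3 at 3 months (8 to 9 and 1 to 3), 14 to 21 in MPP3 at 24 months (9 to 15 and 5 to 6), 40 in MPP4 at 3 months (1 and 39) and 25 to 30 in MPP4 at 24 months (25 to 30 and 0 to 2). For the differences of steps, in the order of the report, it gave 9 to 16, 8 to 12, 39, 38 to 40 and 5 to 10. Level comparisons gave 28 to 31 and 27 to 31 between genotypes in T1 and T2, 40 to 41 and 35 to 39 between ages in MPP3, 20 to 26 and 39 to 40 between ages in MPP4, and 34 to 38, 39 to 40, 7 to 14 and 18 to 26 between progenitors at 3 and 24 months.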
